A study of Danio rerio with 24 samples.

Results

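Genes of sterol and fatty acid synthesis were described in 3 tissues of adult zebrafish after injection of LPS or PBS. The list held 37 genes chosen by name and pathway, from the mevalonate steps to the desaturases. A probe was found for 31 of them, among the 12858 genes that could be named on the array, and each gene was read through its probe with the highest mean over the 24 arrays. The array table used here paired no probe with *ldlrb*, *scap*, *acaca*, *fasn*, *acss2* or *me1*, so the enzymes that build the fatty acid chain itself were not analysed here.

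Fish of 9 months received 10 µg of LPS, a component of the bacterial cell wall, or PBS alone by the intraperitoneal route, and tissues were taken 3 hours later. The groups were LPS liver, PBS liver, LPS kidney, PBS kidney, LPS muscle and PBS muscle, with 4 one-colour arrays each. Each array held RNA from a pool of 3 fish, so p-values measure the spread between these pools. In the comparison over all tissues, differences between tissues enter this spread as well. The fish carried no mutation or transgene named in the labels, their diet was labelled Normal, and their sex is not given in the sources used here.

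Cholesterol is built from acetyl-CoA through mevalonate, farnesyl diphosphate and squalene, which is then closed into a ring and trimmed step by step. Fatty acids made from the same precursor are lengthened by elongases and given double bonds by desaturases. The SREBP transcription factors switch on most genes of both routes, SREBP2 chiefly those of sterols and SREBP1 chiefly those of fatty acids, and the INSIG proteins hold the SREBPs in the endoplasmic reticulum when sterols are plentiful. The liver is a main site of both routes in vertebrates.

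Values are log2 signals minus the 75th percentile of their array, so that 0 is a signal at this percentile, and levels were compared between groups within a probe and never between probes. Of all probes, 39.4 to 55.7% were well above background on LPS livers, 42.5 to 52.4% on PBS livers, 50.1 to 61.7% on LPS kidneys, 54.6 to 84.8% on PBS kidneys, 63.8 to 71.1% on LPS muscles and 57.3 to 63.5% on PBS muscles. Among the members, 18 of 31 were well above background on every array with a value, while *pmvk*, *scdb* and *fdft1* were so on 7, 8 and 9 of 24 arrays. For *scdb* no liver array passed this limit, and its liver values have no order.

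Several arrays stood apart in markers of hepatocytes, the main cells of the liver. The summed level of 6 such markers (*fabp10a*, *fgb*, *fga*, *apoa2*, *serpina1* and *ahsg2*) was 6.55 on the log2 scale on LPS liver replicate 2, against 10.51 to 11.39 on the other LPS livers and 8.78 to 10.71 on PBS livers. In the kidney it was 9.71 on LPS replicate 2 and 4.00 to 5.10 on the other LPS arrays, and 10.18 on PBS replicate 2 against 3.49 to 7.19 on the other PBS arrays. In the muscle it was 9.45 on LPS replicate 4 and 4.92 to 5.89 on the others, and 9.05 on PBS replicate 2 against 6.18 to 7.28 on the others. These 5 arrays were kept, and counts of called members are also given without them. Marker sums leave out spots marked as outliers, here *fabp10a* on LPS liver 1 and *serpina1* on PBS liver 4.

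**Figure D1:**
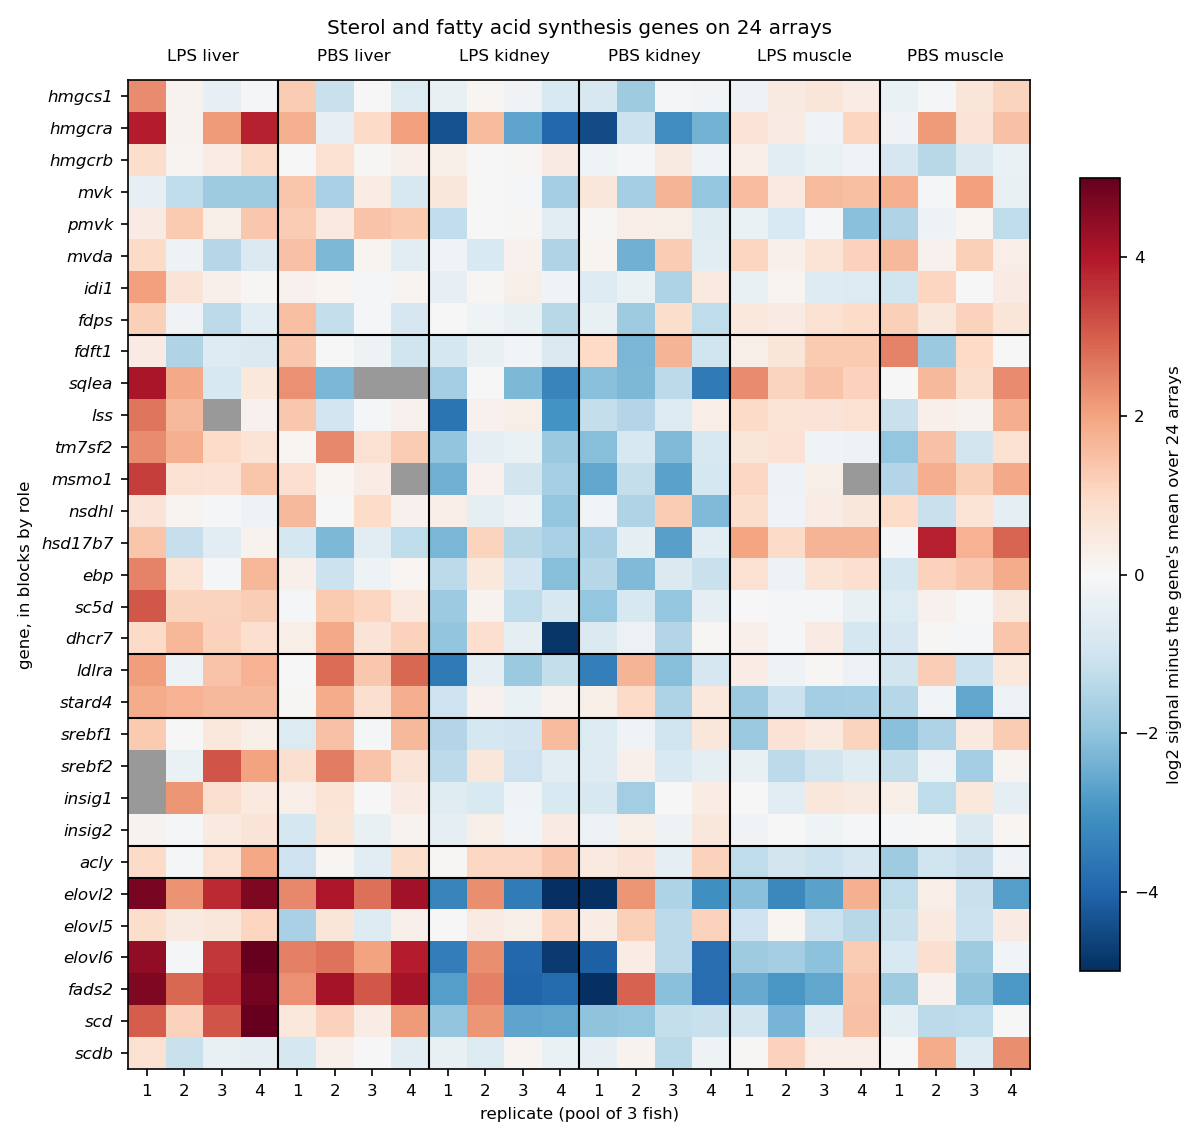
Signal of the 31 members on the 24 arrays, as log2 signal minus the gene's mean over all arrays (red above, blue below, grey for spots marked as outliers; differences beyond 5 take the end colours). Rows are genes in blocks by role and columns are arrays by group and replicate. *elovl2*, *elovl6* and *fads2* are red on the liver arrays, except *elovl6* on LPS liver 2, and blue on most kidney arrays.

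The clearest pattern lay between tissues. Without LPS, the liver carried more signal than the kidney for 6 of the 30 members tested: *hmgcra*, *sc5d*, *elovl2*, *elovl6*, *fads2* and *scd*. None was lower in the liver. This is 20% of the members, while 6.1% of all 12194 genes tested were called in the same comparison, 3.11% as higher and 2.99% as lower in the liver (limma on the 12 PBS arrays, Benjamini-Hochberg adjusted p under 0.05). With only probes well above background on at least 4 of the arrays compared, 8.63% of all genes were called. The share of members under that filter is not given here. The median log2 difference of the members, liver minus kidney, was 0.99, against 0.02 for all genes, and 27 of 30 were above 0. Markers of the exocrine pancreas, tissue that lies in and around the zebrafish liver, moved with the tissues as well. Of 10, 9 were called as higher in PBS liver than in PBS kidney, and their summed level was 9.40 to 10.97 in PBS livers, 3.48 to 5.32 in PBS kidneys and 7.40 to 9.61 in PBS muscles. The part of these cells in the values of the members was not tested. In bulk tissue, fewer cells of a type and less RNA per cell cannot be told apart.

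The largest differences were those of *fads2* and *elovl2*. The desaturase *fads2* (probe A_15_P103127), which places double bonds in polyunsaturated chains, read 5.56, 7.43, 6.38 and 7.45 in PBS livers, against -2.30, 6.24, 1.20 and -0.53 in PBS kidneys. The PBS kidney array at 6.24 lay within the range of the livers and was replicate 2, 1 of the arrays with high hepatocyte markers. The difference was 5.55 ± 1.42 (SE, limma adjusted p 0.0408). Without the arrays set apart by hepatocyte markers it was 7.25 ± 0.80 (adjusted p 0.000491). That fit leaves out the highest PBS kidney array, which raises the difference by itself. All 7 probes of *fads2* were higher in the liver, by 2.99 to 6.15.

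The elongase *elovl2* (A_15_P102942), which lengthens long polyunsaturated chains, gave 2.81, 4.43, 3.15 and 4.62 in PBS livers and -5.09, 2.61, -1.16 and -2.67 in PBS kidneys. Every liver array was above every kidney array, with kidney replicate 2 next to the lowest liver. Its difference was 5.33 ± 1.27 (SE, limma adjusted p 0.0299), or 40.3-fold, and 6.73 ± 0.88 without the arrays set apart (adjusted p 0.00118). Here too the highest PBS kidney array is the one left out.

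For *elovl6* (A_15_P221101), an elongase of saturated and monounsaturated chains, PBS livers had 3.17, 3.38, 2.68 and 4.60, and PBS kidneys -3.40, 1.05, -0.66 and -3.14. The groups did not overlap, and the difference of 5.0 ± 0.92 (adjusted p 0.00682) was 31.9-fold, with 3 of 4 PBS kidneys well above background. A second probe of the gene gave 5.38. The stearoyl-CoA desaturase *scd* (A_15_P661356), which makes monounsaturated fatty acids, read -0.63, 0.01, -0.77 and 0.98 in PBS livers, against -3.18, -3.11, -2.35 and -2.28 in PBS kidneys. It differed by 2.63 ± 0.50 (adjusted p 0.00793), its other probes by 2.71 and 2.95, and its PBS kidney arrays were close together, with replicate 2 not apart from the others.

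Of the sterol genes, *hmgcra* (A_15_P624101) encodes HMG-CoA reductase, the rate-limiting enzyme of the pathway and the target of statins. It read 0.84, -1.35, -0.01 and 1.08 in PBS livers, against -5.41, -2.03, -4.08 and -3.31 in PBS kidneys. The groups were separate, by 3.85 ± 0.77 (adjusted p 0.0118) or 14.4-fold, with 3 of 4 PBS kidneys well above background, and the second probe of the gene gave 2.74. Its paralogue *hmgcrb* differed by 0.28 (95% interval -0.53 to 1.1, adjusted p 0.713), and the difference between the paralogues was not tested.

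The sterol desaturase *sc5d* (A_15_P103953), which acts near the end of cholesterol synthesis, read 0.51, 1.89, 1.67 and 1.07 in PBS livers and -1.32, -0.20, -1.35 and 0.11 in PBS kidneys. It was higher by 1.98 ± 0.49 in the liver (adjusted p 0.0358), and the groups did not overlap. Liver and kidney were also separate for *pmvk*, *tm7sf2*, *msmo1*, *dhcr7* and *srebf2*, which makes 10 of 31 members above and none below, while 13.2% of all genes were separate, 4.91% in this direction. For *pmvk* only 1 of 4 PBS livers was well above background, and the other probes of *srebf2* gave -0.31 and -0.57, so its direction depends on the probe. All 10 members of the steps from squalene to cholesterol had positive differences, with a median of 1.47 and a range of 0.10 to 2.60, and all 8 of the mevalonate steps, with a median of 0.53. The only members below 0 were *insig2* (-0.21), *acly* (-0.62), which makes cytosolic acetyl-CoA from citrate, and *elovl5* (-0.70), another elongase of polyunsaturated chains, and none of these was called.

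PBS arrays of the same number deviated together across the 3 tissues, and with the replicate block, a term for the replicate number, 10 members were higher in the liver than in the kidney, while the share of all genes called was 19.8%. The 4 added were *tm7sf2*, a sterol reductase (2.60, adjusted p 0.00236), *msmo1*, a methylsterol oxidase (2.61, adjusted p 0.0230), *dhcr7*, the reductase of the last step to cholesterol (1.61, adjusted p 0.0252), and *ldlra* (2.92, adjusted p 0.00428). The last encodes a receptor that takes up LDL, and its values were -0.75, 2.04, 0.59 and 2.1 in PBS livers and -4.19, 0.95, -2.90 and -1.58 in PBS kidneys. Without the arrays set apart by hepatocyte markers, 7 members were called, the same 6 and *ldlra* (3.88, limma adjusted p 0.0184), beside 6.62% of all genes. For *ldlra* that fit leaves out its highest PBS kidney array. PBS livers were scanned on day 3, PBS kidneys 1, 2 and 3 on day 1, PBS kidney 4 on day 3, and PBS muscles on days 2 and 4. Tissue and scan day thus largely coincide among the PBS arrays and cannot be told apart in them. LPS livers and LPS kidneys were all scanned on day 3, and their comparison is given below. The part of the scan day in the PBS differences was not tested. Each slide held 1 tissue, and with the slide as a random block *hmgcra*, *elovl6* and *scd* were called, beside 4.03% of all genes. The same genes kept an adjusted p under 0.05 in all 12 fits that left out 1 array, against 8 fits for *elovl2*, 7 for *sc5d* and 3 for *fads2*, and only 3 members were called without PBS liver 3, PBS liver 4 or PBS kidney 1.

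**Figure D2:**
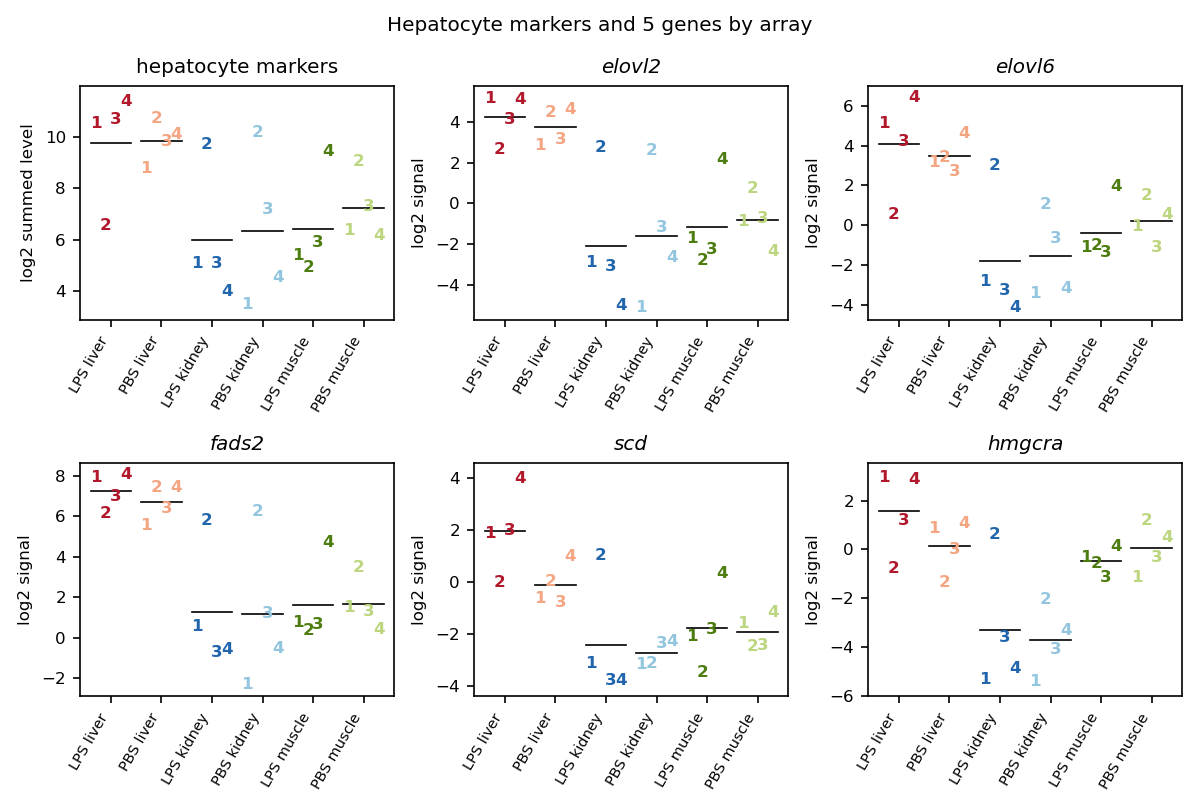
Summed log2 level of 6 hepatocyte markers and log2 signal of *elovl2*, *elovl6*, *fads2*, *scd* and *hmgcra* on each array, by group, with the replicate number as the symbol and a line at the group mean. LPS kidney 2, PBS kidney 2, LPS muscle 4 and PBS muscle 2 lie above the other arrays of their groups in the marker panel and for *elovl2*, *elovl6*, *fads2* and *hmgcra*, and LPS liver 2 lies below.

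Between liver and muscle, 4 of the 6 members of fatty acid elongation and desaturation were again higher in the liver, while *elovl5* (-0.04) and *scdb* were not called. PBS livers were higher than PBS muscles for 6 of 31 members, *pmvk*, *srebf2*, *elovl2*, *elovl6*, *fads2* and *scd*, and lower for 1, *hsd17b7*, together 22.6%, against 10.7% of the 12251 genes tested (5.16% higher and 5.57% lower). With only probes well above background on at least 4 of these arrays, 16.9% of all genes were called. The share of members under that filter is not given here, so the 22.6% is not to be set against it. The HMG-CoA reductase gene *hmgcra* differed by 0.08 (95% interval -1.59 to 1.76, limma adjusted p 0.969). In the order of replicates, *fads2* read 1.51, 3.49, 1.29 and 0.39 in PBS muscles, all below the livers, a difference of 5.03 ± 1.42 (adjusted p 0.0451). For *elovl2* the PBS muscles had -0.88, 0.74, -0.72 and -2.34 (4.55 ± 1.27, adjusted p 0.0434) and for *elovl6* -0.08, 1.48, -1.12 and 0.53 (3.25 ± 0.92, adjusted p 0.0465). All 3 were highest on PBS muscle replicate 2, the array with high hepatocyte markers. Without the arrays set apart their differences were 5.64, 5.07 and 3.68, and leaving out the highest muscle array raises them by itself.

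The desaturase *scd* was at -1.59, -2.49, -2.44 and -1.17 in PBS muscles, below the livers by 1.82 ± 0.50 (adjusted p 0.0394). Without the arrays set apart this difference was 1.63 and was no longer called (adjusted p 0.113). Its paralogue *scdb* differed by -1.18 (adjusted p 0.324), but none of its PBS liver arrays was well above background.

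The only member that was lower in PBS liver than in PBS muscle was *hsd17b7* (A_15_P497217), a reductase of the demethylation steps of sterol synthesis. It read -0.96, -2.33, -0.65 and -1.35 in PBS livers, against -0.11, 3.81, 1.67 and 2.85 in PBS muscles. The groups did not overlap, although muscle replicate 1 lay near the livers, and the difference was -3.37 ± 0.79 (adjusted p 0.0183). The 10 members of the steps from squalene to cholesterol had a median of -0.27, and 4 of them were above 0.

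The phosphomevalonate kinase gene *pmvk* (A_15_P208261) read -2.93, -3.72, -2.77 and -2.88 in PBS livers and -5.70, -4.44, -4.11 and -5.45 in PBS muscles, by 1.85 ± 0.46 (adjusted p 0.0240). In each of these groups only 1 of 4 arrays was well above background, and with another background correction the difference was 0.49 (adjusted p 0.589). The transcription factor gene *srebf2* (A_15_P161091) read 5.31, 7.10, 5.94 and 5.17 in PBS livers and 3.34, 4.27, 2.82 and 4.68 in PBS muscles, by 2.1 ± 0.55 (adjusted p 0.0302). Its other probes gave -0.19 and -0.62, so the direction for this gene depends on the probe.

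With the replicate block 9 members were called between liver and muscle, beside 18.2% of all genes, those 7 with *ldlra* (1.80, adjusted p 0.0379) and *stard4* (2.24, adjusted p 0.00537). The protein of *stard4* carries cholesterol between membranes. It read -0.46, 1.32, 0.30 and 1.30 in PBS livers, above the -1.94, -0.65, -3.11 and -0.80 of PBS muscles, with no overlap. Liver and muscle arrays were separate for 9 members, 8 above and 1 below, beside 19.6% of all genes. Without the arrays set apart by hepatocyte markers 6 were called, *scd* being lost, beside 9.54% of all genes. With the slide as a random block only *pmvk* and *hsd17b7* were called, beside 7.9% of all genes. A single array moved this count further, as 1 member was called without PBS liver 2, PBS liver 4 or PBS muscle 1, 2 without PBS liver 3, PBS muscle 3 or PBS muscle 4, and 3 without PBS liver 1.

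Between kidney and muscle, the members called were genes of sterol synthesis, a role that most of the 31 members hold. PBS kidneys were lower than PBS muscles for 4 of 31 members (12.9%), *hmgcra*, *sqlea*, *hsd17b7* and *ebp*, and higher for none, while 8.13% of all genes were called, 3.66% as higher and 4.47% as lower. With only probes well above background on at least 4 of these arrays, 10% of all genes were called. The share of members under that filter is not given here, so the 12.9% is not to be set against it. The median difference of the members was -0.81, against -0.11 for all genes. The 10 members of the steps from squalene to cholesterol were all below 0, with a median of -1.31. Of 10 exocrine pancreas markers, 9 were called as lower in PBS kidney than in PBS muscle and 1 was above 0. Summed skeletal muscle markers were at 2.69 to 8.99 in PBS kidneys and 9.63 to 11.83 in PBS muscles. The part of these cells in the values of the members was not tested.

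PBS muscles read -1.14, 1.18, -0.32 and 0.51 for *hmgcra*, all above the kidney values given before, and the difference was -3.76 ± 0.77 (adjusted p 0.0112). The squalene epoxidase *sqlea*, another control point of the pathway, read -3.57, -3.72, -2.78 and -5.01 in PBS kidneys and -1.47, 0.15, -0.60 and 0.89 in PBS muscles (-3.51 ± 0.93, adjusted p 0.0473). In PBS livers *sqlea* had only 2 values, 0.81 and -3.75, as the other spots were marked as outliers and left out.

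For *hsd17b7* the PBS kidneys had -1.70, -0.57, -2.79 and -0.64, below all PBS muscles (-3.48 ± 0.79, adjusted p 0.019). The sterol isomerase *ebp* read 0.09, -0.69, 0.81 and 0.41 in PBS kidneys and 0.65, 2.66, 2.84 and 3.36 in PBS muscles (-2.22 ± 0.59, adjusted p 0.0401). Here muscle replicate 1 lay within the kidney values and the other muscles lay above them. The oxidase *msmo1* stood at the threshold, with a difference of -2.7 ± 0.74 (adjusted p 0.05). The paralogue *hmgcrb* ran the other way from *hmgcra*, with every PBS kidney above every PBS muscle, but was not called (0.80 ± 0.38, adjusted p 0.262), and the difference between the paralogues was not tested. The kidney and muscle arrays were separate for 4 members, *hmgcrb* above and *hmgcra*, *sqlea* and *hsd17b7* below, beside 12.3% of all genes.

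With the replicate block 7 members were called between kidney and muscle, beside 16.2% of all genes. They were *acly*, higher in the kidney by 1.49 (adjusted p 0.0191), and 6 that were lower, *hmgcra*, *tm7sf2* (-1.33, adjusted p 0.0487), *msmo1* (-2.7, adjusted p 0.0188), *hsd17b7*, *ebp* and *sc5d* (-1.29, adjusted p 0.0450), while *sqlea* was no longer called (adjusted p 0.0534). Without the arrays set apart by hepatocyte markers only *hmgcra* was called (-3.95 ± 0.77, adjusted p 0.0185), beside 3.97% of all genes. With the slide as a random block *hmgcra* and *hsd17b7* were called, beside 5.71% of all genes. There was 1 call without PBS kidney 1 or PBS muscle 4, and there were 2 without PBS kidney 2, PBS muscle 2 or PBS muscle 3. The fit took its spread from all 12 PBS arrays, and without PBS liver 3 or PBS liver 4 there were 2 calls as well.

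**Figure D3:**
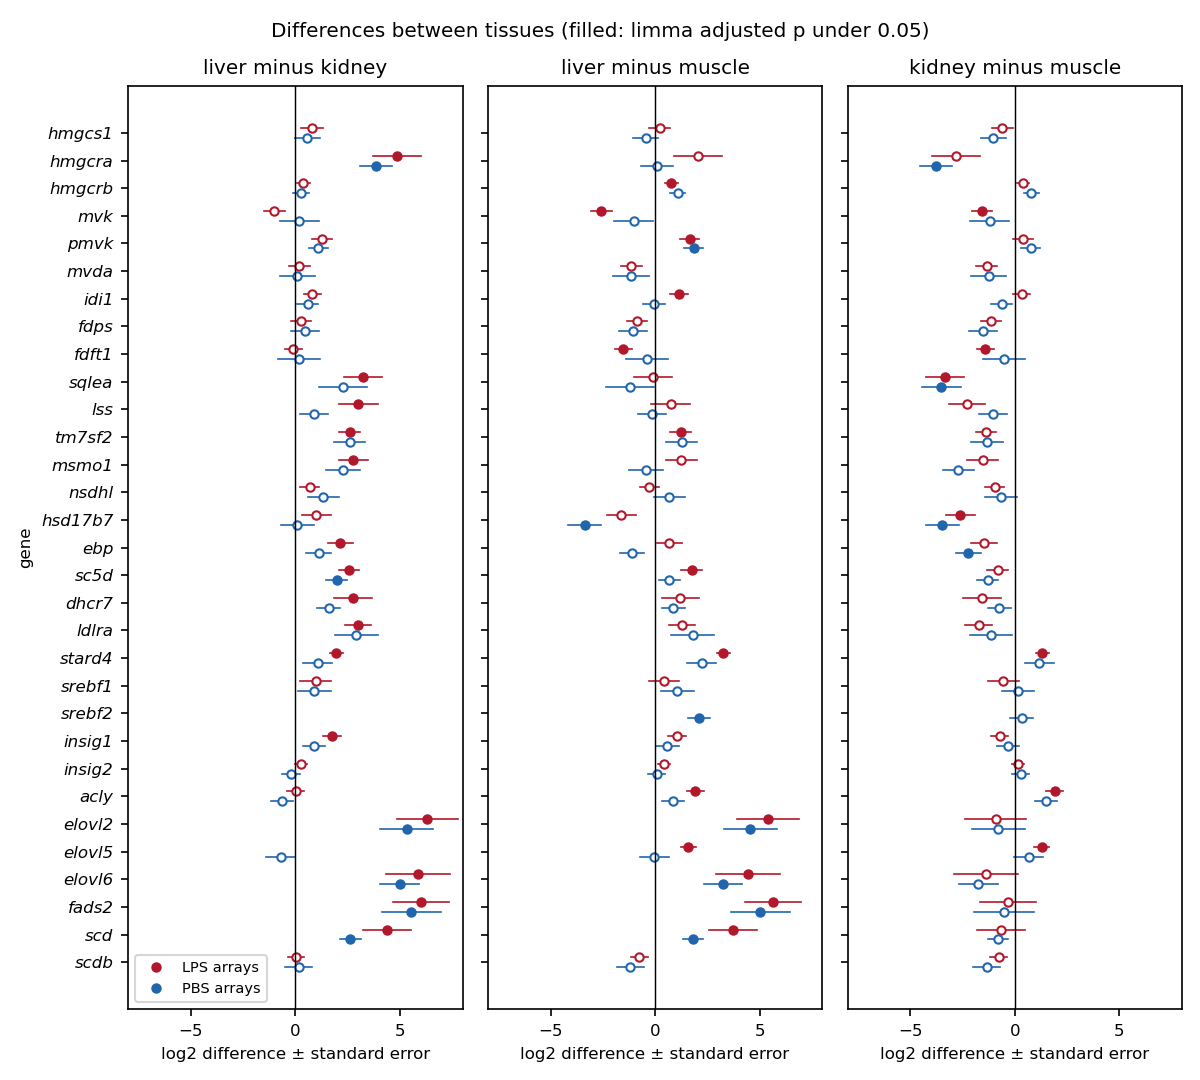
Log2 difference between tissues with its standard error for each member, in LPS arrays (red) and PBS arrays (blue), with filled points at an adjusted p under 0.05. *elovl2*, *elovl6*, *fads2* and *scd* are filled in both treatments in the panels with the liver, and the steps from squalene to cholesterol lie left of 0 in the PBS arrays of the kidney and muscle panel.

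The same tissues were compared after LPS. LPS livers were higher than LPS kidneys for 15 of 29 members and lower for none, beside 26% of all genes called, 10.9% as higher and 15.1% as lower. The fatty acid genes were *elovl2* (6.31 ± 1.47), *elovl6* (5.85 ± 1.53), *fads2* (6.01 ± 1.34) and *scd* (4.38 ± 1.15). In the sterol pathway, *hmgcra* (4.86 ± 1.16, adjusted p 0.00986) was joined by *sqlea*, *lss*, *tm7sf2*, *msmo1*, *ebp*, *sc5d* and *dhcr7*, with differences of 2.16 to 3.24, of which *lss* encodes the cyclase that makes lanosterol. For *hmgcra*, *sqlea* and *lss* only 2 of 4 LPS kidneys were well above background. The last were *ldlra* (3.02 ± 0.63), *stard4* (1.95 ± 0.32) and *insig1* (1.75 ± 0.44). The 6 members called in PBS arrays were among these 15, and the LPS and PBS values come from different arrays.

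LPS livers were higher than LPS muscles for 12 of 30 members and lower for 2, *mvk* (-2.57 ± 0.49, adjusted p 0.00106) and *fdft1* (adjusted p 0.00786), the mevalonate kinase and squalene synthase genes, while 57.2% of all genes were called, 28.7% as higher and 28.5% as lower. For *fdft1* no LPS liver or LPS kidney array was well above background. *stard4* had the smallest adjusted p of the members (3.27 ± 0.32, adjusted p 1.19e-05), and its LPS livers read 1.33, 1.22, 1.12 and 1.09, against -2.32, -1.61, -2.23 and -2.18 in LPS muscles. Both groups were narrow. Between LPS kidney and LPS muscle, 3 members were higher in the kidney, *stard4*, *acly* and *elovl5*, and 4 were lower, *mvk*, *fdft1*, *sqlea* and *hsd17b7*, of 30 tested and beside 29.8% of all genes called (15.2% higher and 14.6% lower). Without LPS liver 2, LPS kidney 2 and LPS muscle 4, the arrays set apart, there were 14 calls between liver and kidney (23.6% of all genes), 11 between liver and muscle (49.5%) and 6 between kidney and muscle (16.4%).

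LPS against PBS gave no call among the members in any tissue. In the liver 0 of 29 members passed an adjusted p under 0.05 in limma, while 62 of 11902 genes did (0.521%), and the lowest adjusted p of a member was 0.221. At an unadjusted p under 0.05 there were 2 members, *scd* and *ebp*, both higher after LPS, beside 18.8% of all genes, 7.23% as higher. The LPS and PBS livers overlapped for all 31 members, whereas 13.3% of all genes were separate.

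The liver estimates of the members lay mostly above 0. The median log2 difference, LPS minus PBS, was 0.58 for the members and 0.04 for all genes in the liver, with 21 of 29 members above 0 (72.4%, against 53.9% of all genes). The steps from squalene to cholesterol had a median of 1.04, with 8 of 10 above 0, elongases and desaturases 0.61 over 5 members, of which 4 were above 0 and *scdb*, at 0.01, has no order, and the mevalonate steps 0.13, with 4 of 8. The range of the members ran from -1.14 for *mvk* to 2.07 for *scd*.

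For *scd* the LPS livers read 1.87, -0.004, 2.0 and 4.00, against -0.63, 0.01, -0.77 and 0.98 in PBS livers. Replicate 2 of the LPS livers, low in hepatocyte markers, lay among the PBS livers, and the other 3 lay above all of them. The difference was 2.07 ± 0.76 (95% interval 0.39 to 3.74, adjusted p 0.221), and the other probes of the gene gave 2.39 and 2.29. Without LPS liver replicate 2, the lowest LPS array, it was 2.73 ± 0.64 (adjusted p 0.105). Over the 8 fits that left out 1 array it ran from 1.39 to 2.73, with limma adjusted p of 0.105 to 0.476.

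For *ebp* the LPS livers read 4.00, 2.19, 1.46 and 3.17, and the PBS livers 1.77, 0.44, 1.26 and 1.62. Only LPS replicate 3 fell within the PBS values, and the difference was 1.43 ± 0.57 (95% interval 0.16 to 2.7, adjusted p 0.264), with 1.22 and 1.25 from the other probes. The genes named in the LPS comparisons were picked after their values were seen, as no member met the rule for naming genes there.

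LPS liver replicate 1 stood above the other LPS livers for many members. It was the highest LPS liver for 19 of 28 members with values on all 4 arrays (67.9%, against 35.6% of all genes) and the lowest for none. The HMG-CoA synthase *hmgcs1*, which makes the substrate of HMG-CoA reductase, read 4.48, 2.29, 1.71 and 2.02 in LPS livers and 3.40, 1.02, 2.14 and 1.45 in PBS livers. For *msmo1* the LPS livers had 4.57, 1.85, 1.84 and 2.47, and the PBS livers 1.94, 1.20 and 1.48 with 1 outlier spot left out. Replicate 1 stood above the rest of the LPS livers for both genes, and without it the median over the members was 0.24 (*msmo1* 0.52, adjusted p 0.612).

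That array shared its slide with PBS livers 2, 3 and 4, while the other LPS livers and PBS liver 1 were on slides with arrays of their own group only. With the slide as a fixed block the comparison therefore rests on LPS liver 1 against those 3 PBS livers, and *msmo1* was the only member called (3.23 ± 0.57, adjusted p 0.0455), beside 1.7% of all genes, with a median of 0.91 and 26 of 29 members above 0, against 0.14 for all genes. In that fit *hmgcs1* differed by 2.94 (adjusted p 0.0560) and *scd* by 1.79 (adjusted p 0.604).

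**Figure D4:**
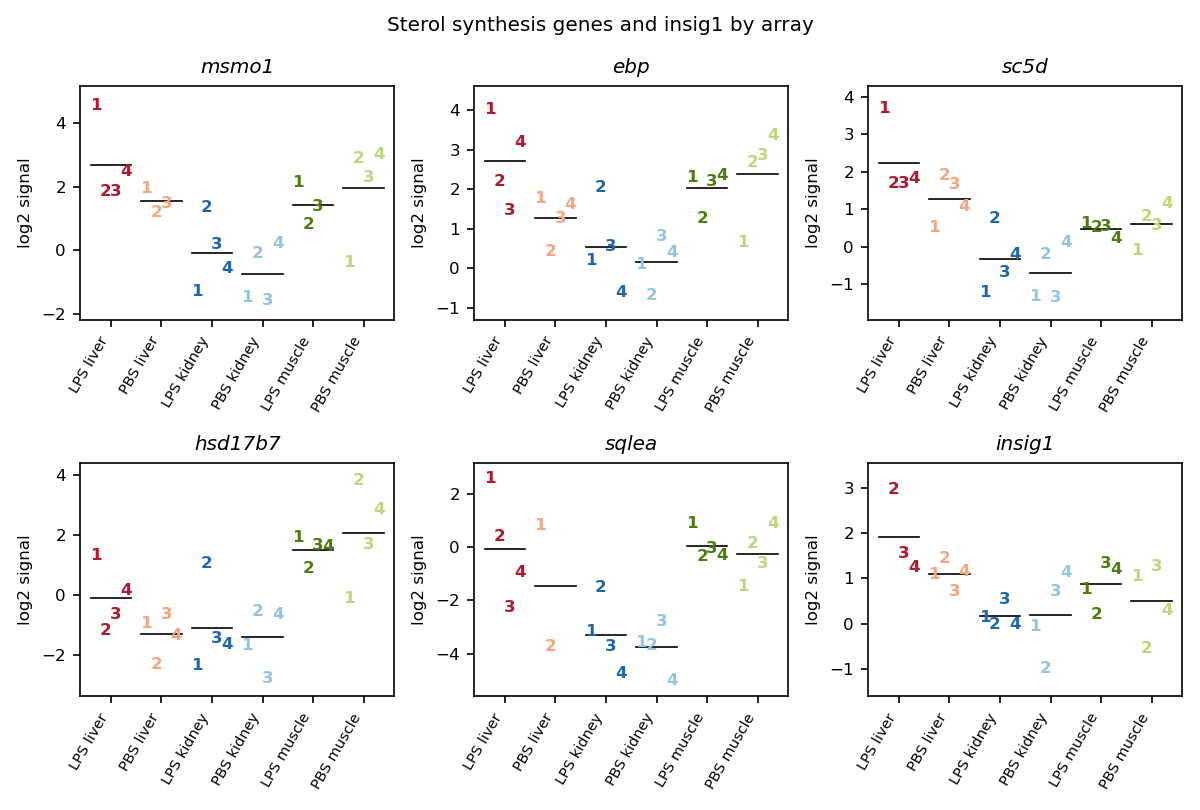
Log2 signal of 5 sterol synthesis genes and *insig1* on each array, by group, with the replicate number as the symbol and a line at the group mean. LPS liver 1 is the highest liver array for *msmo1*, *ebp*, *sc5d*, *hsd17b7* and *sqlea*, and its spot for *insig1* was marked as an outlier.

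The remaining liver members can be given by role. *hmgcra* read 2.96, -0.76, 1.17 and 2.89 in LPS livers, against 0.84, -1.35, -0.01 and 1.08 in PBS livers. LPS liver 2, the lowest LPS array, lay among the PBS values. The difference was 1.43 ± 0.85 (limma adjusted p 0.467), and 2.20 ± 0.68 without that array (adjusted p 0.173). The elongase *elovl5* read 4.42, 3.99, 4.10 and 4.60 in LPS livers and 1.92, 4.13, 2.90 and 3.78 in PBS livers, where only PBS liver 2 reached the LPS values (1.1 ± 0.50, adjusted p 0.333). *insig1*, whose product holds back the SREBPs, had 2.96, 1.54 and 1.25 in LPS livers and 1.09, 1.44, 0.71 and 1.15 in PBS livers (0.82 ± 0.50, adjusted p 0.487), and *srebf1* differed by -0.05 (adjusted p 1). At their brightest probes *srebf2* and *fads2* were above the 95th percentile on all liver arrays with a value and were not tested there. The spot of that *srebf2* probe on LPS liver 1 was marked as an outlier. Other probes, given here without p-values, differed by 0.39 for *hmgcra*, 1.945 and 1.58 for *elovl5*, and 1.44 and 1.16 for *insig1*. Those of *srebf1* gave -0.35, of *srebf2* 0.99 and 1.24, and of *fads2* 0.68 to 1.47.

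Other marker lists differed between LPS and PBS livers. The summed level of 4 macrophage markers was 5.28 to 7.53 in LPS livers and 3.84 to 4.27 in PBS livers, although 1 of the 4, *csf1ra*, was not higher and only 1 had an unadjusted p under 0.05. That of 4 neutrophil markers was 1.21 to 5.10 in LPS livers and -0.33 to 1.38 in PBS livers, with 3 at an unadjusted p under 0.05, and that of 11 oocyte markers was 5.71 to 6.68 in LPS livers and 6.96 to 9.38 in PBS livers, with overlap for the neutrophil markers alone. The oocyte markers ran the other way in the other tissues. After LPS, 11 of 11 tested were above 0 in the kidney (median 1.87) and 7 of 7 in the muscle (median 1.11). The 6 LPS response genes summed to 6.47 to 8.87 in LPS livers and 2.55 to 5.03 in PBS livers. These sums leave out outlier spots, *irf1b* on LPS liver 2, the array at 6.47, and *nfkbiaa* on PBS liver 2. Likewise the macrophage sum of PBS liver 4 lacks *mfap4*. All of them but *nfkbiaa* are among the genes that the paper lists as most modulated by LPS on these same arrays. Their separation therefore follows from how they were chosen. The part of these cells in the values of the members was not tested.

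In the kidney 0 of 30 members were called in limma after LPS (lowest adjusted p 0.791), with 0.075% of all genes called, and 0 members had an unadjusted p under 0.05, against 6.29% of all genes. The LPS and PBS kidneys overlapped for all 31 members, beside 5.81% of all genes separate. The median was 0.11 for the members and -0.02 for all genes. Intervals were wide for the genes that followed the hepatocyte markers, as *fads2* differed by 0.12 (95% interval -4.52 to 4.75) with LPS kidneys at 0.54, 5.82, -0.71 and -0.58 and PBS kidneys at -2.30, 6.24, 1.20 and -0.53. Replicate 2 was the highest in both groups. Without the arrays set apart the median was -0.14, with 10 of 30 members above 0. On the only slide with arrays of both treatments, 3 of LPS and 1 of PBS, it was -0.04, against -0.36 for all genes. PBS kidneys 1, 2 and 3 were scanned on day 1 and all other kidney arrays on day 3.

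In the muscle 0 of 31 members were called in limma (lowest adjusted p 0.917), as were 0 of 12079 genes, and 0 members had an unadjusted p under 0.05, against 2.51% of all genes. The groups overlapped for all 31 members here too, beside 2.09% of all genes separate. Estimates ran from -0.60 for *elovl6* to 0.62 for *hmgcrb*, with a median of -0.06 for the members and -0.09 for all genes. Within the slides that held both treatments the median was -0.19 on 1 and -0.33 on the other, against -0.44 and -0.03 for all genes, and after quantile normalization it was 0.01. Without LPS muscle 4 and PBS muscle 2 it was -0.08, again with no call. Over all tissues 0 of 31 were called (lowest adjusted p 1) and 0 had an unadjusted p under 0.05, beside 0.369% of all genes called and 5.03% at an unadjusted p under 0.05. That fit had no term for the tissue, so differences between tissues add to its spread and limit what it can call. With such a term no member was called either, beside 1% of all genes. The summed LPS response genes, mostly chosen as changed on these same arrays, did not overlap between treatments in kidney and muscle either. They were at 7.12 to 8.22 in LPS kidneys and 2.28 to 4.58 in PBS kidneys, and at 5.04 to 6.07 in LPS muscles and 2.19 to 4.67 in PBS muscles.

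**Figure D5:**
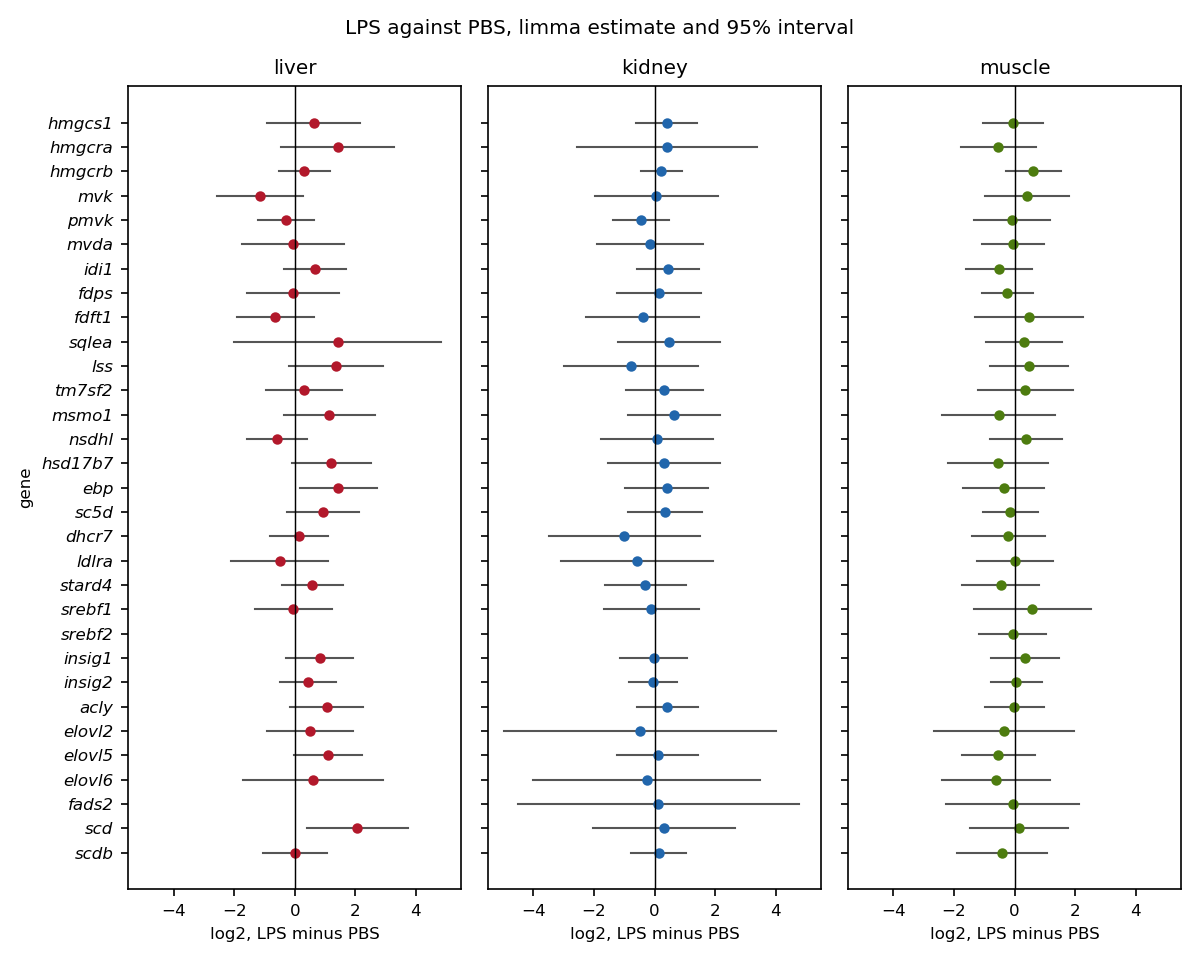
Log2 difference, LPS minus PBS, for each member in liver, kidney and muscle, as the limma estimate with its 95% interval. Most liver estimates lie right of 0 and only the intervals of *scd* and *ebp* leave it out, while those of kidney and muscle include 0 for every member tested.

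Whether LPS acted differently on the members in different tissues was tested as an interaction over the 24 arrays. No member was called in limma in any of the 3 contrasts, nor was any gene at its brightest probe (0% of 12459), and 0 members had an unadjusted p under 0.05, against 7.7% of all genes for liver minus kidney, 17.3% for liver minus muscle and 8.11% for kidney minus muscle. Without the arrays set apart no member was called either, beside 0, 0.0322 and 0% of all genes. At an unadjusted p under 0.05 there were 3, 3 and 0 members. The share of all genes at that level was not counted in these fits, so the member counts cannot be weighed. In the fit of all arrays the smallest p was that of *elovl5* in liver minus muscle (1.63 ± 0.79, p 0.0514, adjusted p 0.380), followed by *ebp* (1.79 ± 0.88, adjusted p 0.383). The LPS effects on the members are therefore not shown to differ between tissues.

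Members also varied together among arrays of 1 group. On all 5 arrays set apart by hepatocyte markers, *hmgcra*, *elovl2*, *elovl6* and *fads2* followed the markers, being highest on LPS kidney 2, PBS kidney 2, LPS muscle 4 and PBS muscle 2 and lowest on LPS liver 2. These are 4 of 29 members (13.8%), and 1.48% of all genes had the same order. On LPS kidney 2 alone, 15 of 31 members were the highest of their group (48.4%, against 13.1% of all genes), among them *scd* at 1.04, against -3.14, -3.79 and -3.77 on the other LPS kidneys. The part of liver tissue in these arrays was not tested.

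Few members took the order of the oocyte markers, whose sums were 9.22, 4.38, 9.10 and 4.00 in PBS kidneys and 10.57, 7.01, 10.31 and 8.71 in PBS muscles. Like these sums, *mvk*, *mvda*, *fdps*, *fdft1* and *nsdhl* were higher on replicates 1 and 3 than on replicates 2 and 4 in both tissues. The decarboxylase gene *mvda*, for example, read 1.11, -1.42, 2.24 and 0.42 in PBS kidneys and 2.61, 1.22, 2.20 and 1.31 in PBS muscles. They are 5 of 31 members (16.1%), beside 22.3% of all genes with this order. The median SD within a group was 0.91 for the members and 0.56 for all genes in LPS livers, 0.86 and 0.65 in PBS livers, 0.88 and 0.49 in LPS kidneys, 0.92 and 0.88 in PBS kidneys, 0.51 and 0.48 in LPS muscles, and 1.01 and 0.87 in PBS muscles.

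Neighbouring pathways were read from further lists. Of 12 other genes of sterol synthesis and handling on the array, 0 were called after LPS in limma in any tissue, with 2 at an unadjusted p under 0.05 in the liver, 2 in the kidney and 0 in the muscle. Of all genes, 18.8% lay at that level in the liver, 6.29% in the kidney and 2.51% in the muscle. Genes of fatty acid oxidation gave 0 calls of 17, 16 and 19 tested in liver, kidney and muscle (1, 1 and 0 at an unadjusted p under 0.05). Further genes of fatty acid and triglyceride synthesis gave 0 of 15, 16 and 16 (5, 1 and 0). Of the 5 in the liver, 2 were higher and 3 lower after LPS. In the list of cholesterol efflux, oxysterols and bile acids 1 of 8 was called in liver and kidney, beside 0.521 and 0.075% of all genes. This was *ch25h*, which makes 25-hydroxycholesterol, an oxysterol that holds back SREBP processing in mammals. The paper lists this gene among those most modulated by LPS on these same arrays, so its call is no independent result. *ch25h* averaged -0.12 ± 0.90 in LPS livers and -4.76 ± 0.72 in PBS livers (SD, n = 4 each, limma adjusted p 0.008), at least 6.35-fold higher, as no PBS liver was well above background. In the kidney it averaged 0.47 ± 0.51 after LPS and -3.51 ± 0.86 after PBS (3.98 ± 0.49 SE, adjusted p 0.0383), and in the muscle -2.1 ± 0.98 after LPS and -3.56 ± 1.06 after PBS (1.46 ± 0.65 SE, adjusted p 0.917). Over all tissues it differed by 3.36 ± 0.48 (SE, adjusted p 0.000448).

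Between PBS tissues, *agpat2*, *dgat1a* and *mogat2*, genes of triglyceride synthesis, were higher in the liver than in the kidney and than in the muscle, for example *mogat2* by 4.04 ± 0.48 and 3.88 ± 0.49. In the liver against the muscle, *soat1*, *mbtps1*, *nr1h4*, *cpt2*, *acadm*, *acaa2* and *idh1* were higher as well. There 2 of 12 further sterol genes and 1 of 8 efflux genes were called as higher, beside 5.16% of all genes. So were 4 of 19 oxidation genes, not all named here, and 4 of 16 of fatty acid and triglyceride synthesis. Estimates exceeded 0 for 18 of 19 oxidation genes, 5 of 12 further sterol and 6 of 8 efflux genes and 18 of 31 members. In fatty acid and triglyceride synthesis 10 of 16 did, and against the kidney 13 of 16, beside 27 of 30 members. The product of *mbtps1* makes the first of the cuts that release the active SREBPs. In the liver this gene was higher than in the muscle by 1.48 ± 0.42 (limma adjusted p 0.0463). The bile acid gene *cyp7a1* averaged -2.26 ± 1.58 in PBS livers and 3.78 ± 1.49 in PBS muscles (SD, n = 4 each). The difference was -6.04 ± 0.94 (SE, limma adjusted p 0.00182), and PBS kidneys were below the muscle too (-5.55 ± 0.94, adjusted p 0.00436). *cyp7a1* was read through the brightest of its 3 probes alone. The other probes are not reported here, so whether its direction depends on the probe was not tested.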

How the data were processed

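RNA pools were hybridised to 1-colour zebrafish arrays (4 arrays in each of 6 groups). The deposited scanner files hold intensity per spot, background-subtracted by the authors with Agilent Feature Extraction, whose version is 10.7.3.1 in the file headers and 10.4.0.0 in the submitters' processing notes, while the methods name another version and scanner. The authors also deposited a table of log2 values, shifted at the 75th percentile with a further offset per probe that is not described, and differences between its arrays matched those computed here within 0.01 for 100% of 35715 probes.

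From the intensity, log2 values minus the 75th percentile of each array were computed, leaving out control spots and spots marked as outliers. Probes between the 20th and 95th percentile of the raw data on at least 1 array of a comparison were tested with limma 3.58.1 in R 4.3.3, with Benjamini-Hochberg adjustment over all of them; counts over all genes use the brightest probe of each of 12858 genes, named through a RefSeq table. LPS and PBS arrays were compared within each tissue (8 arrays) and over all tissues (24 arrays), PBS tissues in a fit of the 12 PBS arrays, and interactions over 24 arrays. Precision is limited by the 4 arrays of each group. *acly* was matched as *aclya*.

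Members, gene lists and marker lists were chosen with earlier results of these data known. Values on every array were to be given for members called in an LPS comparison, or otherwise the 5 of largest change with separate groups, and for the 5 called members of largest difference in each direction between PBS tissues. Other members given on every array (*sc5d*, *ldlra*, *stard4* and *mvda*, *scd* between liver and muscle, and all those under LPS) were chosen after their values were seen. Genes of other lists were to be named where called or as the largest change of their list. Not every gene that met this rule is reported here.

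Same-numbered PBS arrays deviated together in all pairs of tissues (correlation of deviations from the group means 0.119 to 0.711), as did LPS and PBS kidneys (0.301 to 0.64), so the replicate number was also used as a block. Some arrays of different numbers correlated as closely (PBS liver 1 with PBS kidney 3 at 0.651 and with PBS kidney 1 at 0.437), as replicates 1 and 3 deviated from 2 and 4. Other alternatives were quantile normalization, the 50th percentile, normexp (offset 50, on median signals), the authors' table, other filters, the median over probes, slide and scan day as blocks (block correlations from every 10th probe), all 24 arrays together, a term for the tissue, LPS in place of PBS arrays, and leaving out each array. Leaving out the arrays set apart by hepatocyte markers (from PBS or LPS arrays), the replicate block with no filter and the replicate number as a random block were chosen after seeing the data. Same-numbered LPS arrays of different tissues did not deviate together (-0.496 to 0.242). The labels do not say whether same-numbered arrays of different tissues within a treatment come from the same pool of fish. LPS and PBS arrays hold different fish, so between treatments the block cannot stand for a shared pool. The fits were tested on simulated data.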

Additional observations from a re-analysis of the deposited data

Results flagged for a closer look

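Among 180 sets of 4 arrays of 1 gene in 1 group, 7 (3.89%) had an array far from the other 3 by Dixon's criterion, which chance alone meets in about 1 of 20. On LPS muscle replicate 4, *elovl6* read 1.93, against -1.37 to -1.03 on the other LPS muscles, and *fads2* read 4.69, against 0.36 to 0.75. The acyl desaturase *scd* read 1.04 on LPS kidney replicate 2, against -3.79 to -3.14 on the other LPS kidneys. Both arrays were among the 5 set apart by hepatocyte markers, and the part of those cells in the values was not tested. The sterol desaturase *sc5d* read 3.69 on LPS liver replicate 1, against 1.70 to 1.82 on the other LPS livers. On LPS muscle replicate 2, *mvk* was at 0.73 and the others at 1.74 to 1.80, and *ebp* was at 1.26 and the others at 2.18 to 2.35. For *pmvk*, PBS liver replicate 2 read -3.72 and the other PBS livers -2.93 to -2.77.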

How the results depend on the processing

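No member was called for LPS against PBS in any tissue, over all tissues or in an interaction under any alternative run, the replicate block (0 calls) and each left-out array (0 to 0) included, with 1 exception: with the slide as a fixed block, 1 member was called in the liver. Between PBS liver and PBS kidney there were 6 calls (6.1% of all genes called), and the share of all genes changed with the setting too. At the 50th percentile there were 10 (15.8%), where the median of all genes moved to 0.20, against 0.02. There were 3 with the slide as a random block (4.03%) and 10 with the replicate block (19.8%). With that block and no filter there were 11 (21.4%), and with the replicate number as a random block 10 (20.8%). In LPS arrays there were 15 (26%), or 14 without those set apart by hepatocyte markers (23.6%), and 3 to 7 PBS calls remained without 1 array. Between PBS liver and PBS muscle there were 7 calls (10.7% of all genes called). There were 2 with the slide as a random block (7.9%) and 9 with the replicate block (18.2%). In LPS arrays there were 14 (57.2%), or 11 without those set apart by hepatocyte markers (49.5%), and 1 to 7 PBS calls remained without 1 array. Between PBS kidney and PBS muscle there were 4 calls (8.13% of all genes called). There were 2 with normexp (4.05%), 2 with the slide as a random block (5.71%) and 7 with the replicate block (16.2%). With the replicate number as a random block there were 7 (16.1%), and in LPS arrays 7 (29.8%). Without the arrays set apart by hepatocyte markers there was 1 (3.97%), and without 1 array there were 1 to 4. With normexp the median of all genes was -0.33 for liver minus muscle and -0.30 for kidney minus muscle, against -0.05 and -0.11. The only change of direction among the called members was *srebf2* between liver and muscle, at -0.19 with the median over its probes.

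For *hmgcra*, *elovl6* and *scd*, liver against kidney, the call held in all 27 alternatives, and for *hmgcra*, kidney against muscle, in 26 of 27. Over all probes, calls between PBS liver and PBS kidney numbered 9010 with the replicate block and 2234 without it, those between PBS liver and PBS muscle 6308 and 3568, those between PBS kidney and PBS muscle 6202 and 2990, and those for LPS in the liver 72 with normexp and 164 without it. Same-numbered LPS and PBS arrays of liver and muscle did not deviate together in every pair, and the block changed no LPS call among the members, while over all probes it left 17 calls in the liver, against 164, and 5 in the kidney, against 32. Causes of these changes were not tested. In liver minus muscle, the interaction called 1 probe of all and no member. Dim signals limit *pmvk*, *fdft1*, *scdb* and *srebf1*, which were well above background on 7, 9, 8 and 14 of 24 arrays.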
